A study of Mus musculus with 3 samples.

Results

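The genes described here are 42 autosomal genes that recur as drivers of clonal hematopoiesis and of myeloid or lymphoid leukemia. With earlier results of these data known, these genes were chosen from a list of symbols and not from their values. Of these, 41 were among the 30212 genes of the per-library allele count files, and 40 had at least 10 allelic counts in each of 3 whole-exome DNA libraries, as did 21802 autosomal genes in all. U2af1 was not analysed here, and Suz12, a subunit of Polycomb repressive complex, had 0, 0 and 5 counts. The study transplanted hematopoietic stem cells (HSCs) of C57BL/6 x CAST/EiJ F1 females into sub-lethally irradiated recipients of the same cross and sequenced DNA of the donor-derived lymphocytes. Donor cells were told from those the irradiated hosts still had by a Ly5 surface marker, and recipient cells left after sorting would carry both parental copies too. The E6.2 library held 58000 B220+IgM+ B cells of a recipient given 50 HSCs of donor animal 6, from spleen by the sample labels and from bone marrow by the study's methods. The E6.43 library held 250000 CD4+CD8- thymic T cells of a recipient given 1 HSC of the same donor. The E15.10 library held 177000 CD4+CD8- thymic T cells of a recipient given 1 HSC of donor animal 15. Each library is 1 animal with no replicate, the tests below compare libraries and not conditions, and clonality cannot be told apart from cell type or recipient. E15.10 also differs from both others in the donor. Where values come in threes, they stand in this order of libraries: E6.2, then E6.43, then E15.10.

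In clonal hematopoiesis the progeny of a mutated stem cell comes to make up a large part of the blood. Its usual drivers are regulators of DNA methylation and chromatin, signalling kinases, splicing factors and guardians of the cell cycle. In leukemia some of these genes, but not all, lose the remaining normal copy, by deletion or by copying of the other chromosome. This is called loss of heterozygosity (LOH). In an F1 mouse the parental copies differ at many single nucleotide polymorphisms (SNPs), so LOH in most of the cells moves the share of one parent's reads. That share was measured as AI, the maternal (C57BL/6) counts over all allelic counts of a gene, and AI under 0.25 or over 0.75 is called the LOH range here, after the study's own limits. From the library medians, a loss without replacement would have to reach 71.3 to 71.4% of cells for the maternal copy, or 61.1 to 61.3% for the paternal copy, to bring a typical gene to these limits. These SNPs mark which parental copy is present, and new point mutations of the genes were not analysed here.

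The libraries held 19471576 (E6.2), 13036005 (E6.43) and 10863972 (E15.10) allelic counts, and the autosomal median AI was 0.538, 0.538 and 0.537. The marker genes chosen for the cell type check had no values, so antigen receptor segments, which are deleted from DNA as lymphocytes rearrange, were taken instead after their values had been seen. Relative to 1000000 autosomal counts, those over 3 Trdv segments were 121, 45.0 and 42.3, and those over 17 Traj segments were 201, 98.2 and 49.6, so both were lower in the T cell libraries. Counts over 2 Igkj segments were 18.7, 51.0 and 30.9 on the same scale, lowest in the B cell library.

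The alleles are read at positions such as those below, the best covered SNPs of Cdkn2a, Jak2 and Npm1, on whose AI the results below turn. Each line gives the GRCm38 reference around the SNP, with the reference base, which is the maternal one, in capitals.
Cdkn2a exon 1, chr4:89282037-89282065, + strand: ttccagcagtgcccGcacgtcatgcacac
Cdkn2a exon 2, chr4:89276717-89276745, + strand: gcggaacacaaagaGcacccagcggaacg
Jak2 exon 13, chr19:29294907-29294935, + strand: gttttgaattatggTgtctgtgtctgtgg
Jak2 exon 15, chr19:29296627-29296655, + strand: attacagttctaccGaaggacagtaagtt
Npm1 exon 4, chr11:33160899-33160927, + strand: atttcaaagcccccTagggaaacctaaaa

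Most driver genes were present in near equal parental shares in the single-HSC progeny and in the polyclonal cells. In E6.2 none of the 40 members lay in the LOH range, against 4.46% of the 21802 autosomal genes. Npm1 alone did so in E6.43, against 4.88% of all genes, and E15.10 had no such member, against 5.04%. AI stayed between 0.4 and 0.6 in all 3 libraries for 29 of the 40, against 56.6% of all genes. Outside 0.4 to 0.6 were 4, 5 and 6 members, against 19.7%, 24% and 26.9% of all genes, and a 95% Wilson interval reached the LOH range for 1, 2 and 3 members, against 7.51%, 10.1% and 13.7%. The members' median AI was 0.526, 0.521 and 0.544, with ranges of 0.283 to 0.623, 0.231 to 0.645 and 0.403 to 0.740. Their median distance from the library median was 0.0269, 0.0375 and 0.0384, beside 0.0369, 0.0423 and 0.0473 for all genes. The members' median depth was 583, 374 and 310 counts, against 553, 371 and 272 for all genes. For the median member, the 95% Wilson interval over SNPs at least 300 bp apart still allowed the loss of a copy in 24.9%, 30.5% and 34.7% of cells, so smaller subclones were not detectable at this depth. All intervals cover counting error only.

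**Figure D1:**
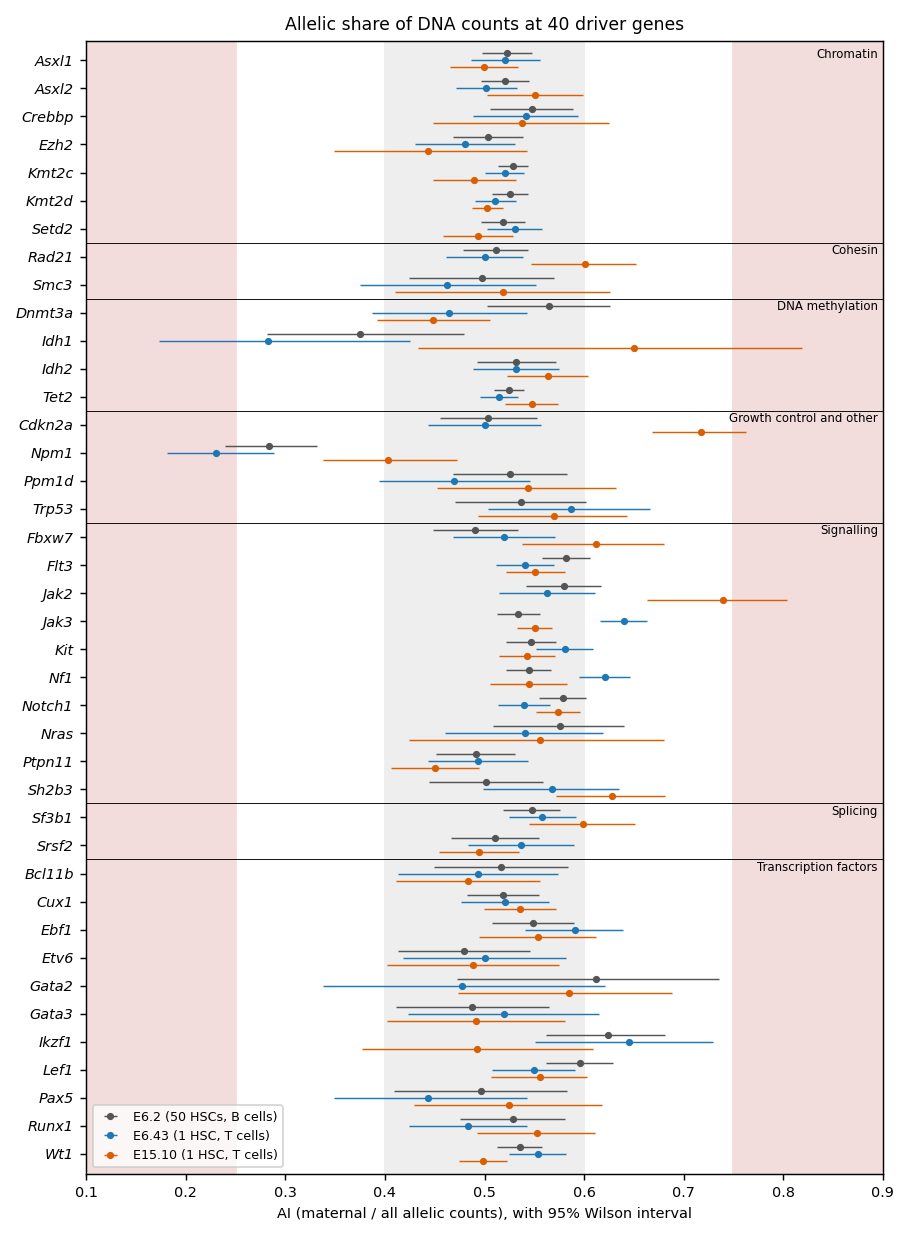
AI (x axis, maternal share of allelic counts) of the 40 measured driver genes, grouped by role, in each library; bars are 95% Wilson intervals, pink marks AI under 0.25 or over 0.75 and grey marks 0.4 to 0.6. Npm1 in E6.43 is the only point in the pink area, and Cdkn2a and Jak2 in E15.10 lie closest to its upper edge.

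Among regulators of DNA methylation, Tet2, which oxidises methylcytosine, was the best covered, with 4230, 2618 and 1378 counts, and its AI was 0.524, 0.515 and 0.547. Dnmt3a, the de novo methyltransferase most often mutated in clonal hematopoiesis, had AI 0.565, 0.464 and 0.448 at 246, 153 and 288 counts. Both stayed between 0.4 and 0.6 in every library. Idh2, a mitochondrial isocitrate dehydrogenase, had AI 0.532, 0.532 and 0.564. Its cytosolic relative Idh1 had 0.375, 0.283 and 0.650, but on only 88, 46 and 20 counts, all in untranslated regions, with a 95% Wilson interval of 0.433 to 0.819 in E15.10. No Idh1 SNP reached 20 counts in all libraries, and its SNPs disagreed within each library. That at position 65159311 had 12 of 48, 7 of 33 and 6 of 12 maternal counts. That at 65179005 had 17 of 17, 5 of 5 and 6 of 6.

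The 7 measured chromatin regulators had AI between 0.503 and 0.547 in E6.2, 0.480 and 0.541 in E6.43, and 0.443 and 0.551 in E15.10. Asxl1, a Polycomb-associated protein and a frequent driver in aged blood, had AI 0.522, 0.521 and 0.499, and its paralog Asxl2 had 0.521, 0.502 and 0.551. Kmt2c and Kmt2d, histone H3 lysine methyltransferases, had 0.529, 0.520 and 0.490, and 0.525, 0.511 and 0.503. Ezh2, the Polycomb methyltransferase, had 0.503, 0.480 and 0.443, the last on 97 counts. Setd2, the H3K36 methyltransferase, had 0.519, 0.530 and 0.494, and Crebbp, a histone acetyltransferase, had 0.547, 0.541 and 0.538. The splicing factors Sf3b1 (0.547, 0.558 and 0.599) and Srsf2 (0.510, 0.537 and 0.494) also stayed between 0.4 and 0.6. Of the cohesin members, Smc3 had 0.497, 0.462 and 0.519, and Rad21 had 0.511, 0.50 and 0.601.

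Among growth control genes, Trp53, which encodes the p53 tumor suppressor, had AI 0.537, 0.587 and 0.570, and Ppm1d, a phosphatase that restrains p53, had 0.526, 0.469 and 0.544. Cdkn2a stood apart in E15.10. Cdkn2a (chr4:89274471-89294653, GRCm38) encodes p16INK4a and p19ARF, inhibitors of the cell cycle that are commonly deleted in T cell leukemia. Its AI was 0.504 in E6.2 on 399 counts, 0.50 in E6.43 on 298 counts and 0.718 in E15.10 on 347 counts, with 95% Wilson intervals of 0.455 to 0.553, 0.444 to 0.556 and 0.668 to 0.762. The maternal share was thus higher in E15.10 than in the other libraries, whose intervals did not overlap with it. Fisher's exact test with Benjamini-Hochberg adjustment over all 21802 genes gave adjusted p = 1.19e-07 against E6.2 and 7.34e-07 against E6.43. Taking no SNPs closer than 300 bp, which a read pair could span, AI was 0.523, 0.505 and 0.691 and the adjusted p was 0.0108 and 0.00849 in the same Fisher's exact test. With the spread between genes built into Fisher's exact test as overdispersion, the adjusted p was 0.826 and 0.883. That spread was taken between genes within each library and not between libraries, so these values do not show that AI was equal.

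The shift of Cdkn2a in E15.10 was seen at its 4 coding SNPs. At the exon 2 SNP printed above, maternal counts were 53 of 107, 36 of 67 and 68 of 93. At the exon 1 SNP they were 74 of 129, 46 of 97 and 59 of 87. All 4 coding SNPs had a higher maternal share in E15.10 than in either other library, and the exon 2 SNP at position 89276926 had 19 of 57, 21 of 48 and 56 of 72. Within each exon the coding SNPs lie closer than 300 bp, so a read pair could be counted at both. The SNP at 89294528, in an untranslated region, had 10 of 26, 10 of 20 and 11 of 20, near balance in E15.10. When each SNP was left out in turn, AI in E15.10 stayed between 0.702 and 0.731. None of these SNPs had another place in the genome at 90% identity. The 32 measured genes within 1 Mb had a median AI of 0.545, 0.559 and 0.570, so the neighbourhood as a whole was balanced. Its neighbour Mtap had 0.598, 0.560 and 0.626. Cdkn2b, the adjacent p15 inhibitor gene, had 0.688, 0.729 and 0.789 on 93, 70 and 38 counts, skewed to the maternal allele in all 3 libraries.

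Jak2 (chr19:29251828-29313080), the cytokine receptor kinase mutated in myeloproliferative disease, had AI 0.580, 0.563 and 0.740 on 647, 405 and 146 counts. Its 95% Wilson interval in E15.10 was 0.663 to 0.804. The adjusted p of Fisher's exact test was 0.00368 against E6.2 and 0.00213 against E6.43, but 0.181 and 0.127 over SNPs at least 300 bp apart. Cdkn2a and Jak2 were the members with AI over 0.7 in E15.10 and between 0.4 and 0.6 in the others, a pattern of 1.13% of all genes. The exon 15 SNP lay in the LOH range in every library, with 84 of 111, 55 of 73 and 22 of 24 maternal counts. The exon 13 SNP had 70 of 123, 50 of 96 and 21 of 36. At the SNPs of exons 20 to 22 the donor 6 libraries were near balance and E15.10 was higher, on few counts. The exon 20 SNP had 36 of 67, 19 of 36 and 13 of 15 maternal counts, those of exon 21 had 52 of 92, 28 of 53 and 17 of 19, and 48 of 90, 28 of 55 and 13 of 16, and that of exon 22 had 55 of 101, 25 of 51 and 14 of 19. The exon 12 SNP went the other way in E15.10, with 14 of 35, 15 of 25 and 1 of 6 maternal counts. That of exon 24 had 16 of 28, 8 of 16 and 7 of 11. Leaving out 1 SNP at a time, AI in E15.10 ranged from 0.705 to 0.791. The 28 measured genes within 1 Mb had a median AI of 0.566, 0.548 and 0.553.

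Npm1 (chr11:33152287-33163206), which encodes the nucleolar protein nucleophosmin, had AI 0.283, 0.231 and 0.403 on 360, 234 and 201 counts, below balance in every library. The exon 4 SNP printed above held 75.2% of its counts, with 63 of 277, 35 of 177 and 48 of 144 maternal. The sequence around this SNP had 8 other places in the genome at up to 98.8% identity, all overlapping processed pseudogenes such as Gm9118 and Gm5611. Without it, AI was 0.470, 0.333 and 0.579. The coding SNP at position 33159951 had 1 of 24, 0 of 9 and 0 of 5 maternal counts, and the noncoding SNP at 33157063 had 16 of 20, 5 of 8 and 7 of 7. The noncoding SNP at 33154164 had 17 of 28, 7 of 29 and 15 of 31 maternal counts, in the LOH range in E6.43 alone. It had no other place in the genome. The untranslated SNP at 33163121 had 5 of 11, 7 of 11 and 11 of 14. The part of the pseudogenes in the AI of Npm1 was not tested. Of 297 member SNPs with at least 20 counts in all libraries, 5 in 5 members had such another place, the others being in Dnmt3a, Nras, Setd2 and Trp53.

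**Figure D2:**
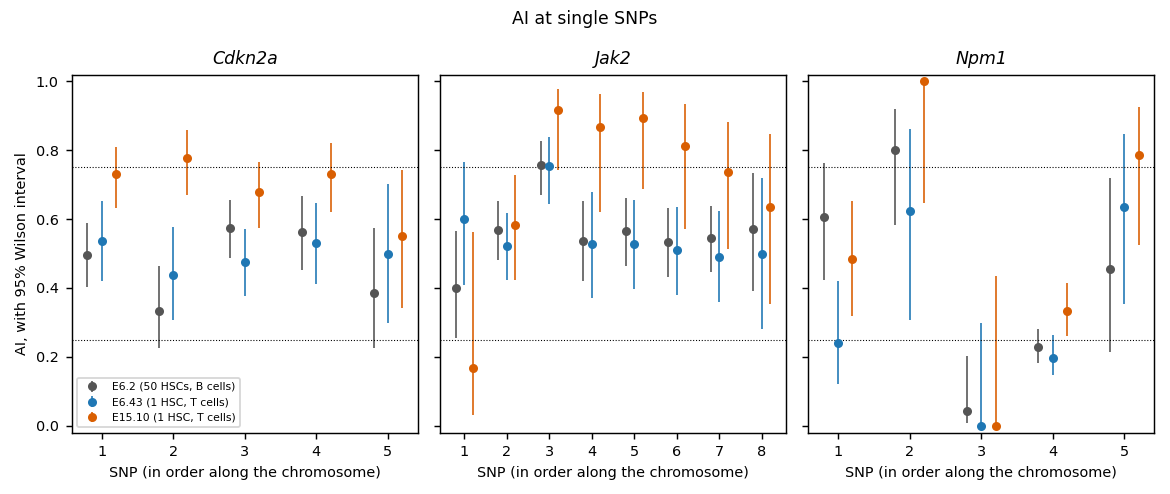
AI (y axis) at each SNP of Cdkn2a, Jak2 and Npm1 with counts in all 3 libraries, in chromosome order; points are the 3 libraries, bars are 95% Wilson intervals and dotted lines mark 0.25 and 0.75. In Cdkn2a the 4 coding SNPs of E15.10 lie above both other libraries, whereas the SNPs of Npm1 disagree within each library.

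Among the other signalling genes, Jak3, the kinase of the common gamma chain receptors needed for lymphocytes, had AI 0.534, 0.640 and 0.550 on 1998, 1602 and 3115 counts. Nf1, a negative regulator of Ras, had 0.544, 0.621 and 0.545 on 1834, 1358 and 639 counts. In both genes E6.43 was the highest library. These were the only 2 of 40 members to pass Fisher's exact test of E6.43 against E6.2, where 13.9% of all genes did, with adjusted p = 3.85e-08 for Jak3 and 0.000526 for Nf1. Over SNPs at least 300 bp apart the adjusted p was 0.230 and 0.104, so neither passed. The receptor kinases Flt3 (0.582, 0.541 and 0.551) and Kit (0.547, 0.581 and 0.543) stayed between 0.4 and 0.6 in every library. So did Notch1 (0.579, 0.540 and 0.574), the receptor most often mutated in T cell leukemia, the phosphatase Ptpn11 (0.491, 0.493 and 0.450) and the GTPase Nras (0.575, 0.541 and 0.556), read at 2 SNPs on 212, 148 and 54 counts. Fbxw7, which marks Notch1 and Myc for destruction, had 0.491, 0.520 and 0.611, and Sh2b3, an adaptor that damps Jak2 signalling, had 0.502, 0.568 and 0.628.

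Of the 11 transcription factors, 9 stayed between 0.4 and 0.6 in every library, among them Runx1 (0.528, 0.483 and 0.552), a master regulator of blood formation, Gata3 (0.488, 0.520 and 0.491), which directs T cell fate, and Pax5 (0.496, 0.443 and 0.524), which directs B cell fate. Bcl11b, needed for T cell commitment, had 0.517, 0.493 and 0.483, and Ebf1, an early B cell factor, had 0.549, 0.591 and 0.554. Lef1, a partner of beta-catenin in thymocytes, had 0.596, 0.550 and 0.555, and Etv6, a repressor fused in childhood leukemia, had 0.479, 0.50 and 0.488. The homeodomain factor Cux1 had 0.519, 0.521 and 0.536, and the zinc finger factor Wt1 had 0.535, 0.553 and 0.498. Ikzf1, the lymphoid factor Ikaros often deleted in leukemia, had 0.623, 0.645 and 0.493 on 247, 107 and 67 counts. Its differences between libraries did not pass Fisher's exact test (adjusted p = 0.203 for E15.10 against E6.2 and 0.185 against E6.43). Gata2, read at 1 SNP, had 0.612, 0.477 and 0.584 on 49, 44 and 77 counts.

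Between E15.10 and E6.2, 7 of 40 members passed Fisher's exact test, where 18.8% of all genes did. Cdkn2a, Fbxw7, Jak2, Npm1, Rad21 and Sh2b3 had the higher maternal share in E15.10, and Dnmt3a the lower. Between E15.10 and E6.43, 8 of 40 passed, where 18.7% of all genes did, with Cdkn2a, Idh1, Jak2, Npm1 and Rad21 higher in E15.10 and Jak3, Nf1 and Wt1 lower. These shares of members were near or under the background. Over SNPs at least 300 bp apart the counts were 0 of 40 between the donor 6 libraries, 1 between E15.10 and E6.2 (Cdkn2a) and 2 between E15.10 and E6.43 (Cdkn2a and Npm1), where 0.665%, 4.66% and 4.67% of all genes passed. All Npm1 SNPs with counts lie at least 300 bp apart, so this limit took away none of its counts. With overdispersion 0 of 40 passed in any pair, where 0.0138%, 1.11% and 1.13% of all genes did, and 4, 9 and 8 members had an unadjusted p under 0.05 in the plain Fisher's exact test, where 26.6%, 30.2% and 29.9% of all genes did. AI differed by over 0.2 in 0, 2 and 2 members, Cdkn2a and Idh1 in both E15.10 pairs, against 2.83%, 5.9% and 6.82% of all genes.

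**Figure D3:**
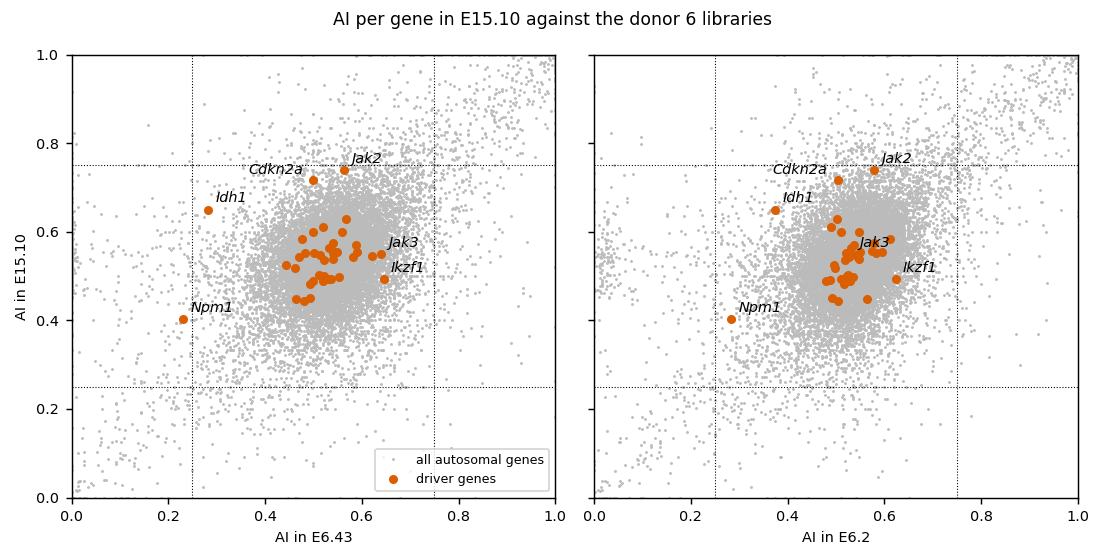
AI per gene in E15.10 (y axis) against E6.43 (left) and E6.2 (right); grey points are the 21802 autosomal genes, orange points the 40 driver genes, and dotted lines mark 0.25 and 0.75. The driver genes lie within the cloud of all genes. Among the driver genes, Npm1 and Idh1 have the lowest AI in E6.43 and E6.2, and Cdkn2a and Jak2 the highest in E15.10.

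Of the 297 member SNPs with at least 20 counts everywhere, 241 lay in coding exons. The LOH range held 3 of them in E6.2 alone, against 0.857% of 138659 autosomal SNPs, 5 in E6.43 alone, against 1.75%, and 7 in E15.10 alone, against 2.91%. The Jak2 exon 15 SNP was the 1 member SNP there in every library, against 1.9% of all SNPs, and the Npm1 exon 4 SNP the 1 there in both donor 6 libraries alone, against 1.43%. The E15.10 SNPs included Kmt2c at position 25314841, with 104 of 156, 51 of 89 and 4 of 28 maternal counts, and Rad21 at 51970074, with 26 of 47, 27 of 42 and 19 of 21. Kmt2c as a whole had AI 0.490 in E15.10.

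Allelic shares cannot show a gain or loss of both copies, so the members' counts were also compared between libraries, each relative to all autosomal counts. Between the donor 6 libraries they were nearly equal. None of the 40 members was over 1.5 fold in E6.43, where 1.82% of all genes were, and only Ikzf1 was under 1/1.5 fold, where 2.33% were. Its ratio was 0.646, with an exact 95% counting interval of 0.510 to 0.814. After Ikzf1 the lowest ratios were those of Ezh2 (0.730), Asxl1 (0.778), Idh1 (0.780) and Ppm1d (0.836), and the highest those of Gata2 (1.34), Idh2 (1.27), Notch1 (1.25), Runx1 (1.2) and Jak3 (1.2).

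Ratios with E15.10 followed base composition. Across 19026 genes with at least 50 counts in each library, the log2 ratio of E15.10 over E6.43 correlated with the GC content within 150 bp of the SNPs at Pearson's r = 0.71, and that of E6.43 over E6.2 at 0.33. These are descriptions over genes, which share libraries. Over 1.5 fold in E15.10 against E6.43 were 10 of 40 members, where 21.5% of all genes were, and 12 were under 1/1.5 fold, where 30.5% were. With the GC trend removed, 4 members were over (Kit, Npm1, Ptpn11 and Trp53) and 7 under (Asxl2, Ezh2, Ikzf1, Kmt2c, Lef1, Nras and Ppm1d), where 11.1% and 18.2% of all genes were. Of these, Kit, Npm1, Trp53, Ikzf1, Lef1 and Ppm1d had not been past the limit before the correction. Against E6.2 the counts were 12 and 13 (25% and 32.3% of all genes) before, and 4 and 8 (12.5% and 19.9%) after. With GC content in windows of 4 sizes removed they were 2 and 8 against E6.2 (8.41% and 11.7%) and 1 and 5 against E6.43 (7.89% and 10.7%). The members with the highest ratios against E6.2 had GC-rich SNPs, Gata2 (2.80), Jak3 (2.77), Kmt2d (2.28), Srsf2 (2.20) and Notch1 (2.10), and those with the lowest were Ezh2 (0.225), Kmt2c (0.226), Crebbp (0.393), Jak2 (0.402) and Idh1 (0.404). Against E6.43 the highest were Jak3 (2.32), Dnmt3a (2.24), Srsf2 (2.12), Gata2 (2.09) and Kmt2d (2.03), and the lowest Kmt2c (0.258), Ezh2 (0.308), Crebbp (0.417), Jak2 (0.430) and Nras (0.435). Cdkn2a, whose SNPs lie in GC-rich sequence (61% GC), had a ratio of E15.10 over E6.43 of 1.39, and of 0.788 with the GC trend removed. Its maternal counts alone had a ratio of 1.13 and its paternal counts 0.446 with the trend removed, and 1.71 and 0.68 with GC content in 4 windows removed, so the size of each allele's change depended on the correction. Jak2, in AT-rich sequence (39.9% GC), had a ratio of 0.430, and 0.903 with the GC trend removed.

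**Figure D4:**
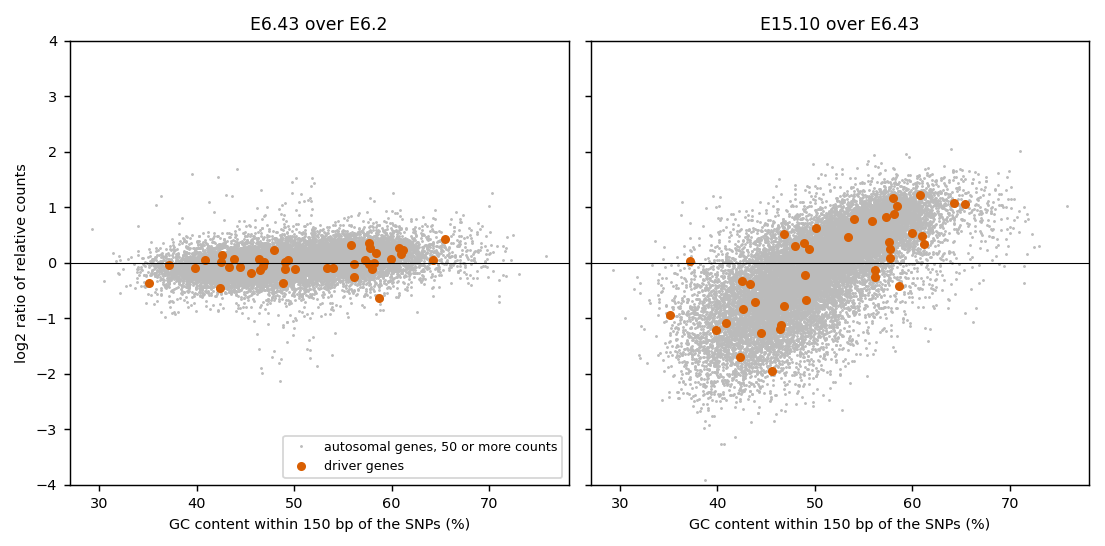
log2 ratio of relative counts (y axis) against GC content within 150 bp of a gene's SNPs (x axis) for E6.43 over E6.2 (left) and E15.10 over E6.43 (right); grey points are autosomal genes with at least 50 counts, orange points the driver genes. The members lie along the same slope as all genes, which is steep only with E15.10.

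A second list of 37 leukemia genes gave a comparison, and 27 of the 37 stayed between 0.4 and 0.6 in all libraries, against 56.6% of all genes. Cebpa, a myeloid transcription factor on chromosome 7, had AI 0.0124, 0 and 0.478 on 161, 108 and 276 counts. It thus lay in the LOH range in both donor 6 libraries. So did its neighbourhood: the 27 measured genes within 1 Mb of Cebpa had a median AI of 0.0267, 0 and 0.542. The study's methods describe a large deletion shared by the animals of donor 6, without its position. Whether Cebpa lies within that deletion was not tested. Cdkn2b, described above, lay in the LOH range in E15.10 over all its SNPs, but not over SNPs at least 300 bp apart.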

How the data were processed

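DNA of 3 lymphocyte samples was captured with an exome kit and sequenced as read pairs by the authors, who aligned reads to GRCm38 and to an imputed CAST/EiJ genome and counted alleles at SNPs with the ASEReadCounter* pipeline. The submitters' processing notes name cutadapt 1.14, Trim Galore, STAR 2.5.4a, SAMtools and GATK, and settings for the exome reads were not given in the sources used here. The deposited counts are raw reference and alternative allele counts per gene and per SNP, and a read pair that spans several SNPs can be counted at each. The fraction AI in a table of the whole series, deposited for genes with at least 90 counts, served as an alternative. That table's limits, p-values and calls are the authors' own comparisons with balance and were not used.

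Counts were summed per gene, genes were named from GENCODE M21 by Ensembl ID, and autosomal genes with at least 10 counts in every library were kept (20 per SNP). AI was compared between libraries by the two-sided Fisher's exact test with Benjamini-Hochberg adjustment over all 21802 genes (threshold 0.05), in Python 3.11.15 with scipy 1.17.1. Alternative tests took SNPs at least 300 bp apart, or took account of a beta-binomial overdispersion of 0.0135 to 0.0156. This overdispersion was fitted between genes within each library, and it lowers the effective counts of well covered genes strongly. The plain Fisher's exact test, the estimate of overdispersion and the GC correction were tried on simulated counts. The 2 alternative tests were not, and the counts simulated for Fisher's exact test held no overdispersion. Ratios of relative counts were corrected for GC content by lowess (statsmodels 0.14.6, fraction 0.3). Other places of the sequence within 75 bases of each member SNP were found with blastn 2.17.0 (at least 90% identity over 75 bases). Intervals are Wilson's at 95%, or exact for ratios. Exons are numbered in each gene's reference transcript in GENCODE, and sequences are from the RefSeq GRCm38 genome. All members are named, with values in every library for those with the 5 largest distances of AI from the library median in a library, the 5 largest AI differences or the 5 largest or smallest relative counts in a pair, fewer than 10 counts, or fewer than 3 SNPs, and for lymphoid transcription factors and the usual genes of clonal hematopoiesis. The members and lists were chosen with earlier results of these data known, and the antigen receptor segments, the GC correction in windows of 4 sizes and the leaving out of single SNPs were chosen after values were seen. A result for an item of the second list is not reported here.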

Additional observations from a re-analysis of the deposited data

How the results depend on the processing

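The number of members in the LOH range (0, 1 and 0, in the order E6.2, then E6.43, then E15.10) was unchanged with SNPs at least 300 bp apart and with the AI of the series table. It was also unchanged with a minimum of 1, 20, 50 or 90 counts, which could not alter it. Npm1 was above each minimum in every library, and Suz12 had no counts in E6.2 and E6.43. It was 1, 2 and 2 with limits of 0.3 and 0.7, and 4, 5 and 6 with limits of 0.4 and 0.6. With the median of SNPs it was 1, 2 and 0, and 1, 2 and 3 members had an interval reaching the range. Members called by Fisher's exact test for E6.43 against E6.2, between E15.10 and E6.2, and E15.10 and E6.43 fell from 2, 7 and 8 to 0, 1 and 2 with SNPs apart and to 0 in each pair with overdispersion, and 0, 2 and 2 differed in AI by over 0.2.

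Between E6.43 and E6.2, 1 member was over and 2 were under a limit of 1.3 fold, 0 were under a limit of 2 fold, and 1 was over 1.5 fold on paternal counts. For E15.10 against E6.2, 4 members were over and 8 under the limit with the GC trend removed, and 2 and 8 with GC content in 4 windows removed, an alternative chosen after seeing the data. Against E6.43 these were 4 and 7, and 1 and 5. With a limit of 2 fold, 6 were over and 9 under against E6.2, and 5 over and 7 under against E6.43. Bcl11b was over 1.5 fold in E15.10 against E6.2 (1.53) but at 0.659 with the 4 windows removed. With a minimum of 10 counts per SNP, 6, 17 and 19 member SNPs lay in the LOH range in 1 library alone, and 0, 2 and 0 with 50. With 5 genes on each side as the neighbourhood, 1 member in E6.43 and 2 in E15.10 had neighbours outside 0.4 to 0.6. The cause of these changes was not tested. No paired analysis was possible because each group is 1 library and the libraries share 1 replicate number.

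Depth limits these results to losses in a large share of cells, least so in E6.2. With 1 library per group no result has a replicate check.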
